A study of Mus musculus with 12 samples.

Results

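Collagens are the main structural proteins of the extracellular matrix. The genes described here are the protein-coding mouse genes whose GENCODE M21 symbol is Col, a number, the letter a and a number, such as Col1a1, with at least 10 estimated counts in total over the 11 mice that have an anxiety group. The rule found 44 genes of 47729 in the table, and 44 of 26963 genes that entered the tests. No gene with such a symbol was lost to the count minimum, and the lowest total was 220 counts (Col4a4). In 42 of the 44 genes every mouse had at least 10 counts, and the exceptions were Col8a2 (at least 6) and Col17a1 (at least 9).

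The RNA came from the amygdala of both sides of the brain, with 1 mRNA library for each of 12 female mice of the inbred strain C57/BL6. The mice were bought at 7 weeks of age and went through the elevated plus maze at 9 weeks, the light/dark box at 10 weeks and a social interaction test at 11 weeks, and no genetic change, drug or other treatment is named for any of them. The less anxious group holds mice 3, 7 and 12, the anxious group mice 1, 4, 8 and 11, and the more anxious group mice 2, 6, 9 and 10, while mouse 5 has no group and stays out of the comparisons. The study formed these groups from tertiles of the second principal component (PC2) of the same RNA values, so a group difference in expression is not independent of how the groups were made. A group name need not match the behavior of a mouse. The more anxious mouse 6 had the most open arm time (29.2%), time in the light (46.6%) and distance in the light (41.9%) of all mice. All groups share the strain, the sex, the tests and a dissection in which brains were stripped of the meninges before slicing.

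Totals ran from 31745630 to 45142355 estimated counts per mouse, and the collagen genes took 0.0679% to 0.0918% of them. Counts per mouse ran from 2851 to 7791 for Col6a1 and from 10 to 45 for Col4a3, so the rarest genes rest on few reads. Levels are counts scaled to library size (CPM), with TMM factors to set mice on a common scale. A list of 10 markers of amygdala neurons summed to 1794 to 2221 CPM in the less anxious, 2039 to 2233 CPM in the anxious and 1999 to 2508 CPM in the more anxious mice. Its highest means were those of Slc17a7 (989 CPM), Gad1 (340 CPM), Sst (323 CPM) and Gad2 (202 CPM). Prkcd (13.6 CPM), Rspo2 (12.0 CPM) and Crh (5.48 CPM) were lowest. How much of the sum is particular to the amygdala was not tested. Pituitary genes stood out in mouse 4, in which Prl, the hormone prolactin, had 31.9 CPM, and in mouse 11 with 4.57 CPM, against at most 2.15 CPM in the others.

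Each collagen chain winds with others of its type into a helix that is secreted and built into a larger structure. Fibrillar collagens form the cables of connective tissue. Type IV collagen forms the sheet of basement membranes, which in the brain surround blood vessels and underlie the meninges, and type VI collagen forms beaded filaments close to them. FACIT collagens sit on the surface of other fibrils, multiplexins join basement membranes to the tissue around them, and transmembrane collagens stay anchored in the cell that makes them. In the brain, fibroblasts of the meninges and vessels are known as the main source of fibrillar collagens, vessel cells as a source of type IV collagen, and neurons as a source of Col25a1.

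Promoter windows show how differently collagen genes begin, including pairs whose members share a start. RefSeq windows of the GRCm38.p6 build, from 250 bases before to 50 bases after the start, were found for 35 of the 44 genes (38 windows). Windows of 4 genes are shown 5′ to 3′, for the divergent type IV pair that most basement membranes use and for the fibrillar genes whose levels moved together over mice. Capitals mark 3 promoter motifs, read on either strand. The GC box, a site that Sp factors bind, was searched as GGGCGG. The CCAAT box, known from the factor NF-Y, was searched by the letters of its name. The TATA box, which places the start of transcription, was searched as TATAAA.
Col4a1 (chr8:11312777-11313076, minus strand): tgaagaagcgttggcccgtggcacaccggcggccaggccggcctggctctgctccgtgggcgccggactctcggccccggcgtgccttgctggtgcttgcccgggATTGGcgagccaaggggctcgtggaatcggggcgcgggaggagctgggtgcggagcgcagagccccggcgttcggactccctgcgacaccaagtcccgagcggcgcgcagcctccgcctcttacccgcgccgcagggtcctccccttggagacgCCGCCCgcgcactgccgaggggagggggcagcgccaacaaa
Col4a2 (chr8:11312555-11312854, plus strand): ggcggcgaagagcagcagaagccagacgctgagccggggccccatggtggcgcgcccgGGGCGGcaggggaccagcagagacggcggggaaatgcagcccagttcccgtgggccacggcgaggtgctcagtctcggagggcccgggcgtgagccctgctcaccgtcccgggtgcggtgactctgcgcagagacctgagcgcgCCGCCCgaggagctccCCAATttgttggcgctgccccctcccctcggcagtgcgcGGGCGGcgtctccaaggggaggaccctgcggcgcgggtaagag
Col1a2 (chr6:4505368-4505667, plus strand): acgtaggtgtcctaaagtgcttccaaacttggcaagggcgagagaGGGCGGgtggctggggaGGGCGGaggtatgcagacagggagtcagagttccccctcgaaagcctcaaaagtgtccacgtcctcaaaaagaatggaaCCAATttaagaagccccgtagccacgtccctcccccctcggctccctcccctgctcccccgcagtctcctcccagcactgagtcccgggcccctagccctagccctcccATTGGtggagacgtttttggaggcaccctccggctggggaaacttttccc
Col3a1 (chr1:45311288-45311587, plus strand): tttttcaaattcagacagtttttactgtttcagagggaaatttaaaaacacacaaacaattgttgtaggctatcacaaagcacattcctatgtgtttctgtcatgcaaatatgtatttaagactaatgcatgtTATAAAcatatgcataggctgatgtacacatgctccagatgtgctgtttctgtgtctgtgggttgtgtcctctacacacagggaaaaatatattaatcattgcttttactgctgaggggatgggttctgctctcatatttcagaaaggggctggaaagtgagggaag

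Col4a1 and Col4a2 lie head to head on chromosome 8, with starts 21 bp apart on opposite strands, and their windows share 78 bases. Their windows were rich in G and C (74.0% and 73.7%), held GC boxes and CCAAT boxes, and had no TATAAA. The Col1a2 window held 2 GC boxes and 2 CCAAT boxes, and its RefSeq start is 804 bp downstream of the GENCODE M21 gene start. The Col3a1 window was poor in G and C (37.7%) and held a TATAAA but neither other motif. The TATAAA lay well upstream of the start, and whether it acts as a TATA box was not tested. Over the 38 collagen windows the median G and C content was 59.9%, with a range from 37.7% to 75.0%. A GC box was present in 23 of the 38 collagen windows (60.5%), compared with 35.7% of all 32851 RefSeq windows of this length. These windows are not all separate. The Col4a1 GC box and the last one of Col4a2 are the same bases on opposite strands, and the Col6a2 windows overlap. The G and C content of all RefSeq windows is not given here, and its part in this difference was not tested. CCAAT was present in 13 (34.2%, compared with 37.4% of all), and TATAAA in 5 (13.2%, compared with 13.6% of all). No match of one motif overlapped a match of another in the collagen windows. These are matches of letters, and no binding was measured.

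Col6a1 (ENSMUSG00000001119), a chain of type VI collagen, had the highest level per length, at 28.8 ± 7.22 CPM per kb of transcript (SD, n = 11 mice). Col25a1 (ENSMUSG00000058897), the transmembrane collagen known from neurons, followed with 16.5 ± 2.24 CPM per kb. Behind them came the type IV chains Col4a2 (13.6 ± 2.17 CPM per kb) and Col4a1 (9.76 ± 1.55 CPM per kb) and the type VI chain Col6a2 (7.69 ± 1.98 CPM per kb). These 5 genes held 55.5% of the summed level per length of all 44. Further down, neighbours in this order often lay within 1 SD of each other, as Col6a2 did with Col23a1 (7.57 ± 2.55 CPM per kb) and Col16a1 (6.93 ± 1.78 CPM per kb). The lowest were Col4a3 (0.0690 ± 0.0263 CPM per kb) and Col4a4 (0.0523 ± 0.0156 CPM per kb), chains of the kidney type of basement membrane, which also lie head to head, with starts 72 bp apart on chromosome 1. Lengths were those of the longest protein-coding transcript, and with the merged length of all exons Col25a1 came to 8.52 CPM per kb and fell behind Col4a2 (13.2) and Col4a1 (8.65). By merged length Col6a2 came to 4.30 CPM per kb and fell behind Col23a1 (7.47) and Col16a1 (5.35).

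**Figure D1:**
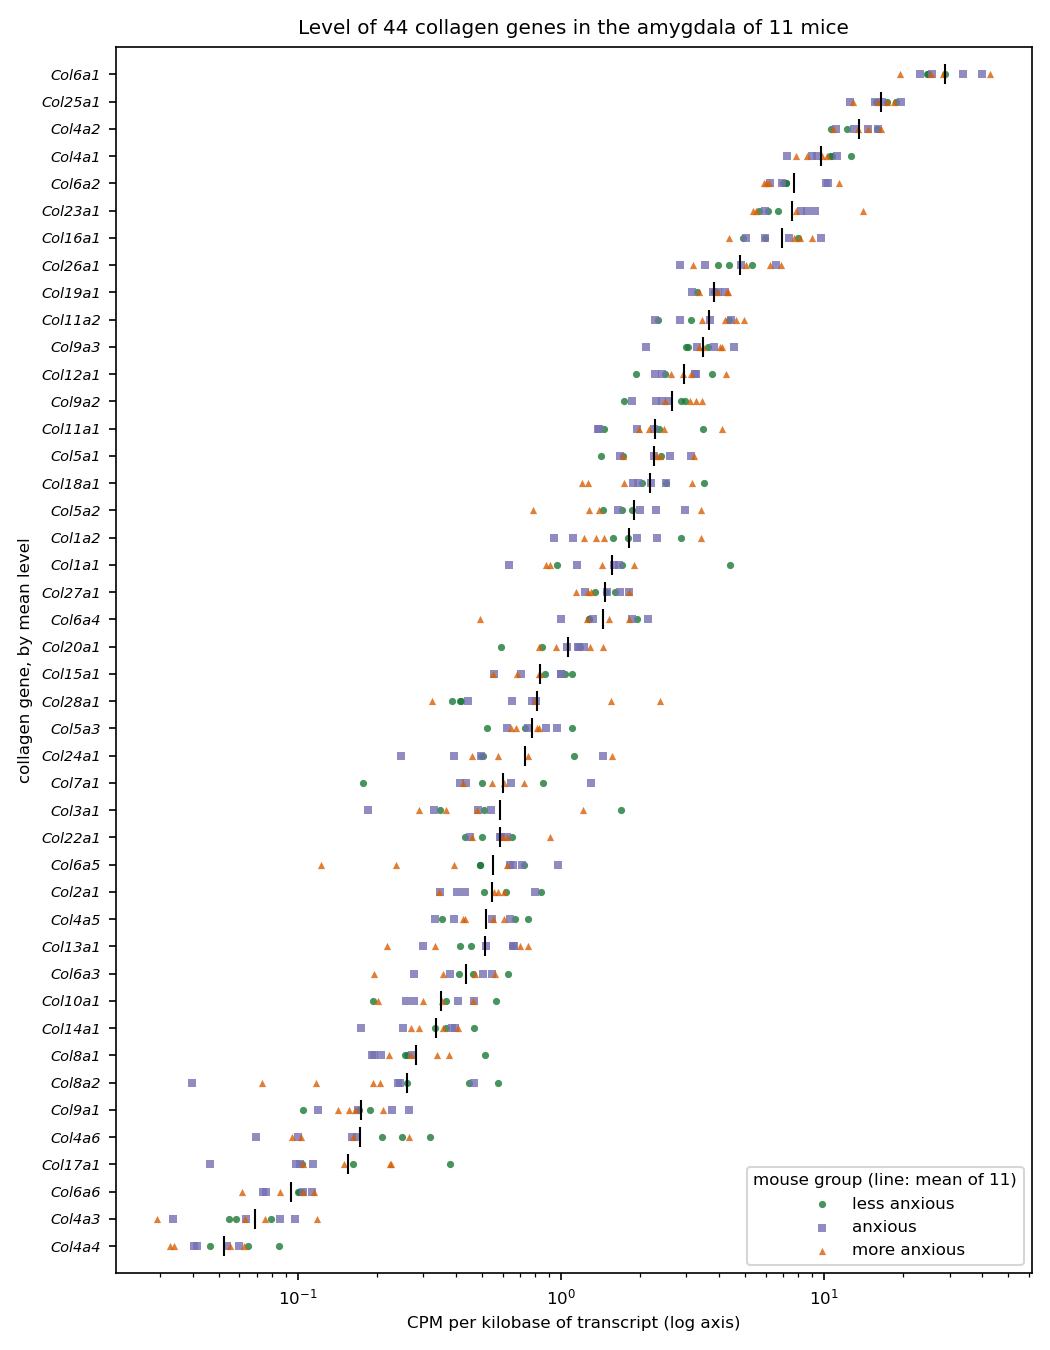
Level per length (CPM per kb of the longest protein-coding transcript, log axis) of the 44 collagen genes, ordered by their mean, with a point for each of the 11 mice, coloured by anxiety group, and a line at the mean. Col6a1 leads with a mean of 28.8 CPM per kb and Col4a4 is last with 0.0523 CPM per kb.

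By class, with the longest transcript as the length, the beaded filament collagens held 28.4% of the summed level per length, the transmembrane collagens 17.96%, the basement membrane collagens 17.5%, the FACIT collagens 15.97% and the fibrillar collagens 12.8%. The multiplexins (2.19%), short-chain collagens (0.649%) and the anchoring fibril gene Col7a1 (0.439%) added little, and Col26a1 with Col28a1 held 4.08%. These shares were not computed with merged exon lengths. With those lengths Col25a1, the highest transmembrane gene, came to 8.52 in place of 16.5 CPM per kb, so the order of classes may differ. The genes had been taken as a readout of meninges and vessels. Per longest transcript, the second highest level belonged to the neuronal Col25a1, and the type I and type III chains of connective tissue held 1.57 (Col1a1), 1.82 (Col1a2) and 0.586 (Col3a1) CPM per kb. The genes are therefore named below by their collagen class, not by a tissue.

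Across the 3 anxiety groups, none of the 44 collagen genes passed the test. The test was edgeR's quasi-likelihood F-test with the first principal component (PC1) as a covariate and Benjamini-Hochberg adjustment over all 26963 genes, in which 0.00742% of all genes were called. At an unadjusted p under 0.05 there were 3 collagen genes (6.82%), Col11a2, Col9a2 and Col17a1, compared with 6.35% of all genes, a share near the background. DESeq2's likelihood ratio test of the same model also called 0 collagen genes, of the 35 with an adjusted p (smallest adjusted p = 0.168, Col11a2). It called 1.40% of all genes with an adjusted p. By this test 6 of the 44 collagen genes (13.6%) had an unadjusted p under 0.05, compared with 6.36% of all genes. Leaving out 1 mouse at a time gave 0 called collagen genes each time, with 1 (without mouse 8) to 8 (without mouse 2) at an unadjusted p under 0.05, and 5 without mouse 1 or mouse 10. Leaving out mouse 4 or mouse 11, which carried pituitary transcripts, left 3 each. Shares over all genes are not given for the fits with a mouse left out, so these counts have no background beside them.

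For more against less anxious mice, edgeR called 0 collagen genes (0.0445% of all genes were called), and 6 (13.6%) had an unadjusted p under 0.05 against a background of 8.83%: Col11a2, Col28a1 and Col9a2 were higher on average, and Col8a2, Col15a1 and Col4a1 lower. For anxious against less anxious mice it called 0 (0.00371% of all genes), and 3 (6.82%, background 4.74%) had an unadjusted p under 0.05: Col17a1 and Col4a6 were lower and Col4a2 higher. For more anxious against anxious mice it called 0 (0% of all genes), and 4 (9.09%, background 4.57%) had an unadjusted p under 0.05: Col11a2, Col9a2 and Col17a1 were higher and Col6a5 lower. These contrasts share samples, so their lists are not separate evidence. Values of less and more anxious mice did not overlap in 3 collagen genes (6.82%), Col8a2, Col4a1 and Col15a1, all lower in the more anxious mice, compared with 8.40% of all genes.

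Log2 differences below are more anxious minus less anxious, fitted with the PC1 covariate and given with their SE. They ran from −1.49 ± 0.60 for Col8a2 to 1.52 ± 0.57 for Col28a1, with 23 collagen genes above 0 and 21 below. Their median was 0.016, compared with 0.0037 over all genes tested. The median turned to −0.057 without the covariate and ran from −0.11 to 0.13 as each mouse was left out, so it had no stable direction. Over the 18 other ways of running the fit, 22 of the 44 genes kept the sign of their difference, 12 higher and 10 lower. The largest number of changed signs in a single one of these fits (11 genes) came with mouse 7 left out.

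**Figure D2:**
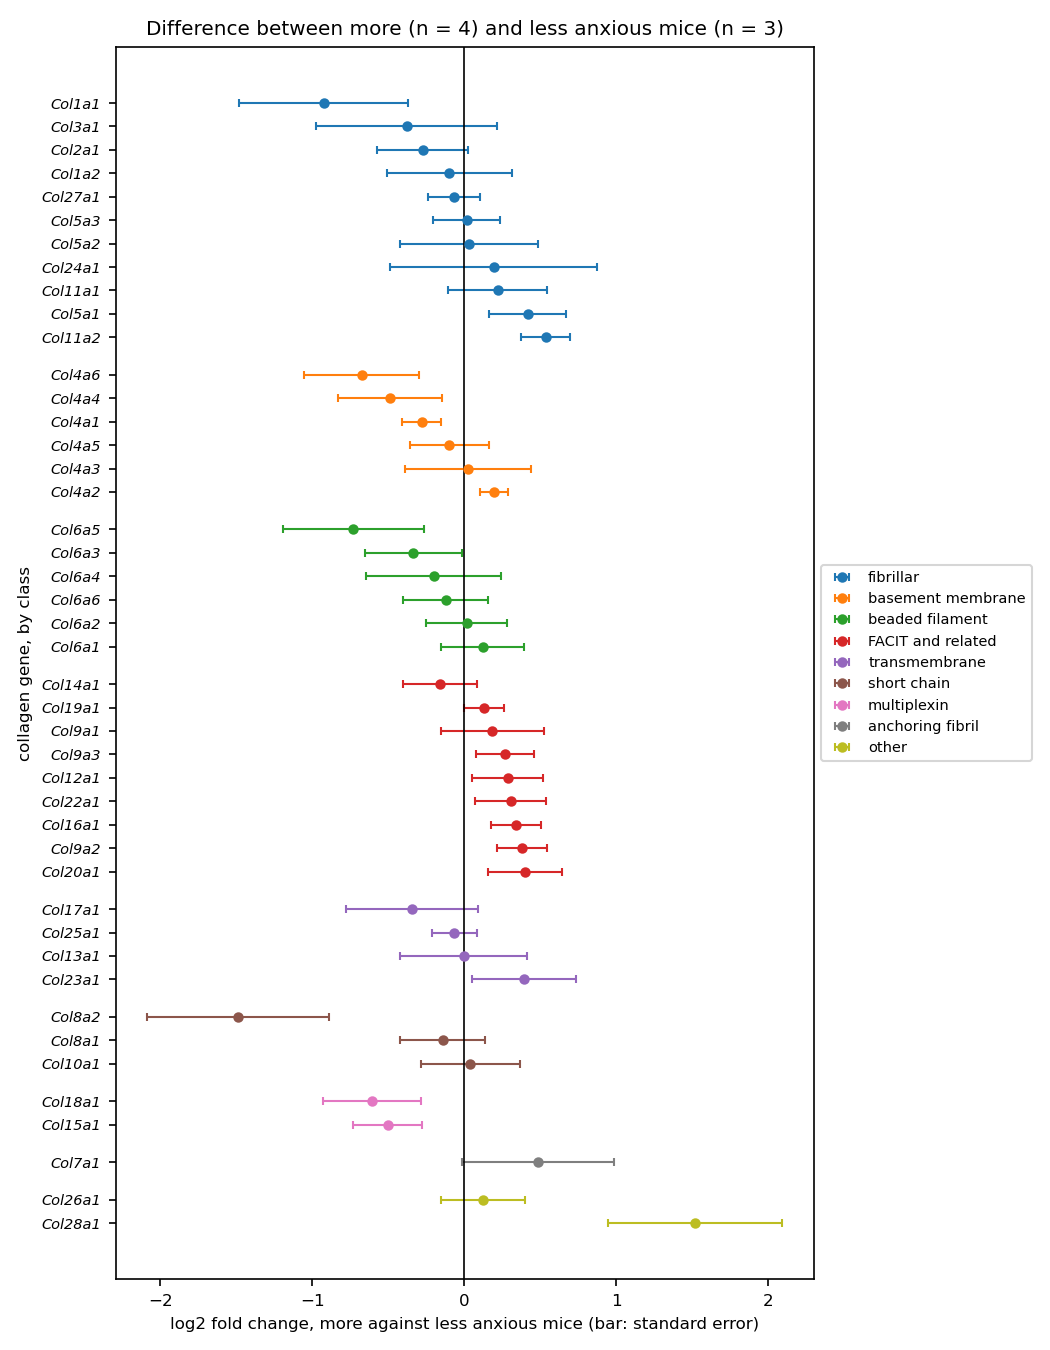
Log2 difference of more anxious minus less anxious mice (edgeR fit with PC1 as covariate; bars are 1 SE) for the 44 collagen genes, grouped and coloured by class. Most genes lie between −1 and 1, 23 above 0 and 21 below, and none passed the test across all genes.

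Values per mouse follow in the order of mice 3, 7 and 12 for the less anxious group, 1, 4, 8 and 11 for the anxious group and 2, 6, 9 and 10 for the more anxious group. The fibrillar class has 11 genes here, of which 6 had a log2 difference above 0 and 5 below, with a median of 0.016. The summed level was 92.9 to 147 CPM in the less anxious, 99.7 to 126 CPM in the anxious and 92.8 to 145 CPM in the more anxious mice.

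Col1a1 encodes the main chain of type I collagen. It was at 5.76, 10.1 and 26.1 CPM in the less anxious mice, 3.76, 9.85, 9.45 and 6.81 CPM in the anxious mice and 8.51, 5.21, 5.37 and 11.3 CPM in the more anxious mice. Mouse 12 lay far above the other mice, and the groups overlapped. The log2 difference of Col1a1 was −0.92 ± 0.56 (adjusted p = 0.910 across the groups, edgeR, Benjamini-Hochberg), and it was −0.044 without mouse 12 and −1.43 without mouse 7. Col1a2, the partner chain, was at 9.66, 8.47 and 15.3 CPM in the less anxious mice, 5.05, 10.4, 5.95 and 12.4 CPM in the anxious mice and 7.29, 6.53, 7.83 and 18.2 CPM in the more anxious mice. Mice 10 and 12 were highest, 1 in the more and 1 in the less anxious group. Its log2 difference was −0.097 ± 0.41 (adjusted p = 0.988), and 0.15 without mouse 12. Col3a1, the chain of type III collagen, which joins type I collagen in vessel walls and soft tissue, was at 2.85, 1.94 and 9.42 CPM in the less anxious mice, 1.84, 2.69, 1.03 and 3.03 CPM in the anxious mice and 1.60, 2.04, 2.66 and 6.77 CPM in the more anxious mice. Again mice 12 and 10 were highest, and among genes with at least 10 counts in every mouse Col3a1 varied most over mice (SD of 0.892 on the log2 scale). The fitted log2 difference was −0.38 ± 0.60 (adjusted p = 0.945), and its sign turned to 0.49 without mouse 12, while it was −0.94 without mouse 10.

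Mice 12 and 10 were also the mice with the highest summed level of the meningeal and perivascular fibroblast markers (Dcn, Lum, Ogn, Fbln1, Igf2, Slc6a13, Islr, Foxc1, Aldh1a2 and Cemip), at 217 and 229.8 CPM, followed by mouse 2 (201 CPM) and mouse 4 (195 CPM). The sum was 145 to 217 CPM in the less anxious, 63.9 to 195 CPM in the anxious and 90.5 to 229.8 CPM in the more anxious mice, so the groups overlapped. None of the 10 markers was called, 8 had a log2 difference below 0, and none was at 0 in any mouse. In the more anxious mice without mouse 10, Col1a2 ran from 6.53 to 7.83 CPM. The part of fibroblast RNA in these levels was not tested. In bulk tissue, fewer cells of a type and less RNA per cell cannot be told apart.

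Col5a1, a type V chain that sets the width of type I fibrils, was at 20.1, 14.5 and 11.9 CPM in the less anxious mice, 14.1, 18.9, 21.9 and 26.3 CPM in the anxious mice and 26.9, 14.5, 19.3 and 19.98 CPM in the more anxious mice. The more anxious mouse 2 and the anxious mouse 11 were highest, and the groups overlapped. In the fit the log2 difference came to 0.42 ± 0.25 (adjusted p = 0.911 across the groups by edgeR with Benjamini-Hochberg adjustment). Col24a1, a fibrillar chain known from developing bone, was at 3.60, 3.55 and 8.01 CPM in the less anxious mice, 3.56, 2.80, 10.3 and 1.76 CPM in the anxious mice and 4.13, 3.29, 5.35 and 11.1 CPM in the more anxious mice. It was high in mice 8, 10 and 12, 1 in each group, and its log2 difference was 0.19 ± 0.68 (adjusted p = 0.987).

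Col11a2, a type XI chain known from cartilage and the inner ear, had the smallest p of the 44 genes. It was at 26.4, 14.2 and 18.9 CPM in the less anxious mice, 17.1, 22.4, 13.8 and 26.7 CPM in the anxious mice and 28.01, 20.7, 29.9 and 25.4 CPM in the more anxious mice. The less anxious mice 7 and 12 and the anxious mice 1 and 8 were lowest, but the less anxious mouse 3 lay among the more anxious mice, so the groups overlapped. More minus less anxious, the log2 difference was 0.54 ± 0.16, with an unadjusted p = 0.0106 across the groups and an adjusted p of 0.618 (edgeR, Benjamini-Hochberg). Without the PC1 covariate the unadjusted p was 0.188. With an offset for the GC content of the transcripts in each mouse, the difference was 0.25 and the unadjusted p 0.224. The fibrillar genes not named above had log2 differences from −0.27 (Col2a1) to 0.22 (Col11a1), and all had adjusted p-values of at least 0.913.

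**Figure D3:**
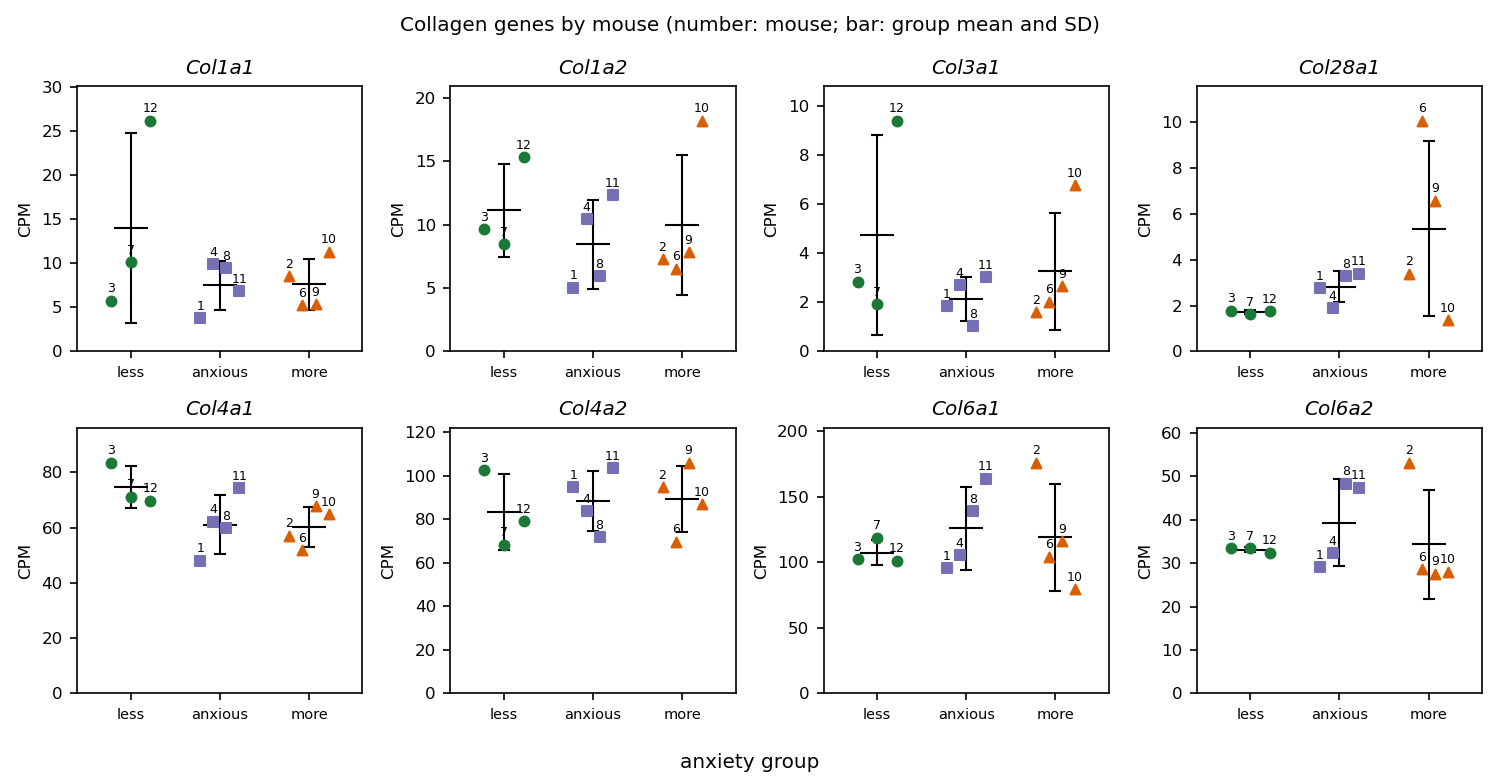
Levels in CPM of 8 collagen genes by anxiety group, each point a mouse with its number, with bars for the group mean and SD. Mice 10 and 12 stand high in Col1a2 and Col3a1, and mouse 2 in Col6a1 and Col6a2, while most groups overlap.

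Type IV collagen of basement membranes had 2 genes with a log2 difference above 0 and 4 below (median −0.19), and its summed level was 145 to 194 CPM in the less anxious, 136 to 184 CPM in the anxious and 126 to 178 CPM in the more anxious mice. Col4a1 (ENSMUSG00000031502, chr8:11198423-11312826, GRCm38, minus strand) and Col4a2 (ENSMUSG00000031503, chr8:11312805-11449287, plus strand) encode the chains that join in most basement membranes. Col4a1 was at 83.5, 71.2 and 69.7 CPM in the less anxious mice, 48.01, 62.2, 59.8 and 74.2 CPM in the anxious mice and 57.1, 51.8, 67.8 and 64.8 CPM in the more anxious mice. All less anxious mice lay above all more anxious mice by a small margin, from 69.7 down to 67.8 CPM. The log2 difference was −0.28 ± 0.13 (unadjusted p = 0.105 and adjusted p = 0.854 across the groups, edgeR, Benjamini-Hochberg). Col4a2 was at 103, 68.4 and 79.2 CPM in the less anxious mice, 94.8, 83.95, 71.7 and 104 CPM in the anxious mice and 94.8, 69.8, 106 and 87.1 CPM in the more anxious mice. Its groups overlapped over nearly their whole range. Its log2 difference was 0.19 ± 0.093 (adjusted p = 0.839), and without the PC1 covariate its unadjusted p moved from 0.0926 to 0.826. With the GC offset the Col4a2 difference was 0.019, and that of Col4a1 was −0.37 (unadjusted p = 0.0243 across the groups, edgeR). The exons of these genes overlap by 22 bases on opposite strands, and whether the counting used the strand is not given in the sources used here.

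The endothelial markers (Cldn5, Pecam1, Flt1, Kdr, Slco1a4, Ly6c1, Itm2a, Tek, Cdh5 and Abcb1a) were also highest in the less anxious mice. Their summed level was 250.04 to 288 CPM in the less anxious, 189.97 to 218 CPM in the anxious and 168 to 211 CPM in the more anxious mice, so the less anxious mice lay above all others. All 10 had a log2 difference below 0 (median −0.48) and 5 had an unadjusted p under 0.05 across the groups, while none was called (smallest adjusted p = 0.476, Itm2a, edgeR, Benjamini-Hochberg). Over all genes tested, 6.35% had such a p and 13345 of 26963 had a log2 difference below 0. The same background applies to the other marker lists. The smallest p-values belonged to Itm2a, a membrane protein of brain vessels (−0.44 ± 0.11), and to the blood-brain barrier transporters Slco1a4 (−0.54 ± 0.13) and Abcb1a (−0.55 ± 0.17). Over 15827 genes with a mean of at least 1 CPM, the log2 difference rose with the GC content of the transcript (Spearman rho = 0.31). Among these markers GC content ran from 40.3% (Slco1a4) to 60.5% (Cldn5, −0.089 ± 0.15). Itm2a had 41.7% and Abcb1a 45.2%, while Pecam1, with the largest difference (−1.44 ± 0.49), had 50.2%. The part of GC content in the marker differences was not tested. No endothelial marker was at 0 in any mouse, and the part of endothelial RNA in the Col4a1 levels was not tested.

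The mural cell markers (Pdgfrb, Rgs5, Vtn, Kcnj8, Abcc9, Acta2, Tagln, Myh11, Notch3 and Higd1b), which mark the contractile cells on vessels, had a summed level of 197 to 318 CPM in the less anxious, 167 to 222 CPM in the anxious and 187 to 279.6 CPM in the more anxious mice. Of them, 9 had a log2 difference below 0 and 1 an unadjusted p under 0.05 across the groups. The smallest p-values were those of Notch3, a receptor of vessel smooth muscle (−0.27 ± 0.14), Rgs5, a pericyte gene (−0.27 ± 0.12), and Tagln, an actin-binding protein of smooth muscle (−0.036 ± 0.53). The groups overlapped in this sum, with mouse 12 highest at 318 CPM and mouse 10 next at 279.6 CPM.

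Col4a6, a type IV chain that pairs with the Col4a5 product in smooth muscle and epithelia, was at 1.66, 1.38 and 2.11 CPM in the less anxious mice, 1.12, 1.07, 0.460 and 0.666 CPM in the anxious mice and 0.632, 1.08, 0.683 and 1.76 CPM in the more anxious mice. The less anxious mice were high, but mouse 10 of the more anxious group lay among them. The fitted log2 difference was −0.67 ± 0.38 (unadjusted p = 0.0625, adjusted p = 0.810 across the groups, edgeR, Benjamini-Hochberg). Col4a3, Col4a4 and Col4a5 had log2 differences of 0.025 ± 0.42, −0.49 ± 0.34 and −0.099 ± 0.26.

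The multiplexins release anti-angiogenic fragments in basement membrane zones, and both of them had a log2 difference below 0, here and in all 18 other fits. Col18a1, the source of endostatin, was at 11.3, 13.98 and 19.6 CPM in the less anxious mice, 14.02, 10.5, 12.3 and 10.99 CPM in the anxious mice and 17.6, 9.73, 6.74 and 7.11 CPM in the more anxious mice. Mice 12 and 2 were highest, from the less and the more anxious group. In the fit the log2 difference came to −0.61 ± 0.32 (adjusted p = 0.911 across the groups, edgeR, Benjamini-Hochberg). Col15a1, which is added here because its less and more anxious values did not overlap, was at 4.51, 5.68 and 5.35 CPM in the less anxious mice, 5.19, 2.87, 5.17 and 3.66 CPM in the anxious mice and 4.29, 3.53, 2.84 and 4.32 CPM in the more anxious mice. Its less anxious mice were only just above the highest more anxious mice, and its log2 difference was −0.50 ± 0.23 (adjusted p = 0.869).

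The beaded filament class had 2 log2 differences above 0 and 4 below (median −0.16), and its summed level was 153 to 173 CPM in the less anxious, 149 to 242 CPM in the anxious and 126 to 249.8 CPM in the more anxious mice. Col6a1 was at 102, 119 and 101 CPM in the less anxious mice, 95.3, 105, 139 and 164 CPM in the anxious mice and 176, 104, 116 and 79.5 CPM in the more anxious mice. Mice 2, 11 and 8 were highest and mouse 10 lowest, and the more anxious group held both ends of the range. The log2 difference of Col6a1 was 0.12 ± 0.27 (adjusted p = 0.986 across the groups, edgeR, Benjamini-Hochberg). Col6a2, whose product joins that of Col6a1 in 1 molecule, was at 33.4, 33.4 and 32.4 CPM in the less anxious mice, 29.1, 32.3, 48.3 and 47.4 CPM in the anxious mice and 53.1, 28.6, 27.6 and 28.04 CPM in the more anxious mice. It was high in the same 3 mice, and its log2 difference was 0.017 ± 0.26 (adjusted p = 0.978).

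Col6a3, the third chain of the classical type VI molecule, was much lower, at 4.68, 6.39 and 4.15 CPM in the less anxious mice, 3.81, 5.10, 2.79 and 5.54 CPM in the anxious mice and 4.76, 1.98, 3.60 and 5.69 CPM in the more anxious mice. Its values scattered in every group, and its log2 difference was −0.33 ± 0.32 (adjusted p = 0.976 across the groups by edgeR with Benjamini-Hochberg adjustment). Col6a5, a chain that can take the place of the Col6a3 product, was at 6.72, 4.58 and 4.57 CPM in the less anxious mice, 6.60, 6.09, 5.93 and 9.02 CPM in the anxious mice and 5.78, 3.65, 2.18 and 1.14 CPM in the more anxious mice. The more anxious mice 6, 9 and 10 lay below all other mice, and mouse 2 did not. More minus less anxious, the log2 difference was −0.73 ± 0.46 (unadjusted p = 0.0664, adjusted p = 0.811). The remaining chains Col6a4 (−0.20 ± 0.45) and Col6a6 (−0.12 ± 0.28) differed by less than their SE.

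Of the 9 FACIT and related genes, 8 had a log2 difference above 0 and 1, Col14a1, below, with a median of 0.29, and none was called. Over all genes tested, 13618 of 26963 had a log2 difference above 0. With the GC offset the 8 genes ran from 0.10 (Col9a2) to 0.34 (Col20a1), and Col14a1 was at −0.14. The summed level was 93.3 to 132 CPM in the less anxious, 105 to 129 CPM in the anxious and 101 to 141 CPM in the more anxious mice, so the groups overlapped. Col9a2, a type IX chain that coats cartilage fibrils, was at 8.66, 5.08 and 8.37 CPM in the less anxious mice, 7.51, 7.08, 5.44 and 6.72 CPM in the anxious mice and 7.29, 9.05, 10.01 and 9.53 CPM in the more anxious mice. The more anxious mice 6, 9 and 10 were above all other mice, and mouse 2 was not. Its log2 difference was 0.38 ± 0.17 (unadjusted p = 0.0319, adjusted p = 0.730 across the groups, edgeR, Benjamini-Hochberg), and without the PC1 covariate its unadjusted p was 0.0957. With the GC offset the difference was 0.10 and the unadjusted p 0.337. Col19a1, which is known from interneurons, was at 16.3, 14.1 and 16.6 CPM in the less anxious mice, 13.4, 16.9, 16.1 and 17.9 CPM in the anxious mice and 18.4, 14.3, 18.3 and 16.8 CPM in the more anxious mice. It varied least among the named genes (SD of 0.154 on the log2 scale), and its log2 difference was 0.13 ± 0.13 (adjusted p = 0.977). The others ran from −0.16 (Col14a1) to 0.40 (Col20a1).

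The transmembrane class had 1 log2 difference above 0 and 3 below (median −0.034), and its summed level was 142 to 166 CPM in the less anxious, 132 to 166 CPM in the anxious and 150.2 to 169 CPM in the more anxious mice. Col25a1 was at 126, 105 and 116 CPM in the less anxious mice, 131, 84.1, 105 and 111 CPM in the anxious mice and 86.6, 124, 107 and 117 CPM in the more anxious mice. Mice 4 and 2 were lowest, the groups overlapped, and the log2 difference was −0.065 ± 0.15 (adjusted p = 0.993 across the groups, edgeR, Benjamini-Hochberg). Col17a1, a component of the hemidesmosomes of skin, was at 0.581, 0.905 and 2.11 CPM in the less anxious mice, 0.258, 0.549, 0.568 and 0.636 CPM in the anxious mice and 0.835, 1.26, 1.25 and 0.585 CPM in the more anxious mice. The anxious mice were all at or below 0.636 CPM and mouse 12 stood above the rest. The fitted log2 difference was −0.34 ± 0.44 for more against less anxious mice and −1.31 ± 0.46 for anxious against less anxious mice (unadjusted p = 0.0345, adjusted p = 0.736 across the groups). Without mouse 12 the sign of its more against less anxious difference changed, and mouse 1 had only 9 counts.

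Among short-chain collagens, which form open networks in the eye and in vessel walls, Col8a1 was at 1.30, 1.33 and 2.64 CPM in the less anxious mice, 0.975, 0.993, 1.06 and 1.39 CPM in the anxious mice and 1.38, 1.14, 1.73 and 1.92 CPM in the more anxious mice. In the fit the log2 difference came to −0.14 ± 0.28 (adjusted p = 0.873 across the groups, edgeR, Benjamini-Hochberg). Col8a2, the partner chain, was at 2.49, 1.94 and 1.12 CPM in the less anxious mice, 0.172, 1.05, 1.06 and 2.03 CPM in the anxious mice and 0.316, 0.509, 0.888 and 0.836 CPM in the more anxious mice. All less anxious mice lay above all more anxious mice, and the anxious mice spanned both. More minus less anxious, the log2 difference was −1.49 ± 0.60 (unadjusted p = 0.0880, adjusted p = 0.837), and its lowest mouse, mouse 1, had 6 counts. The class as a whole summed to 3.87 to 5.56 CPM in the less anxious, 2.61 to 4.69 CPM in the anxious and 2.32 to 4.21 CPM in the more anxious mice.

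Outside these classes, Col28a1, known from the basement membranes of peripheral nerve, was at 1.77, 1.63 and 1.75 CPM in the less anxious mice, 2.75, 1.88, 3.28 and 3.39 CPM in the anxious mice and 3.39, 10.1, 6.58 and 1.37 CPM in the more anxious mice. Mice 6 and 9 stood well above the others, while the more anxious mouse 10 was the lowest of all. Its log2 difference was 1.52 ± 0.57 (unadjusted p = 0.0580, adjusted p = 0.804 across the groups, edgeR, Benjamini-Hochberg). Col26a1 (0.12 ± 0.27) and the anchoring fibril gene of skin, Col7a1 (0.48 ± 0.50), differed by less than their SE.

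The next question was whether chains that build 1 molecule, or genes that lie side by side, rose and fell together over mice. Pearson correlations of log2 CPM over the 11 mice were computed for 9 pairs with permutation tests (two-sided, 100000 permutations). Col1a2 and Col3a1 had r = 0.878 (permutation p = 0.00029, adjusted p = 0.00261 over the 9 pairs) and Spearman rho = 0.90 (permutation p = 0.00032, adjusted p = 0.00288). Without mice 10 and 12, the farthest from the median of Col1a2, r was 0.736 (permutation p = 0.0213). Col6a1 and Col6a2, which lie in tandem on chromosome 10, had r = 0.888 (permutation p = 0.00091, adjusted p = 0.00409) and rho = 0.70 (permutation p = 0.0207, adjusted p = 0.0686). Without mice 2 and 11 r was 0.711 (permutation p = 0.0515), so the relation leans on these mice. Both r values stayed past the adjusted threshold as each mouse was left out in turn.

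Col1a1 and Col1a2, the chains of type I collagen, had r = 0.660 (permutation p = 0.0256, adjusted p = 0.0768) and rho = 0.682 (permutation p = 0.0253, adjusted p = 0.0686). Without mice 1 and 12 r fell to 0.362 (permutation p = 0.349), and the adjusted p passed the threshold only without mouse 8 (permutation, 0.0371). Col4a1 and Col4a2, despite their shared start, had r = 0.280 (permutation p = 0.403, adjusted p = 0.605) and rho = 0.264 (permutation p = 0.435, adjusted p = 0.560), and r = 0.351 without mice 1 and 3. Col1a2 and Col4a1 had r = 0.603 (permutation p = 0.0505, adjusted p = 0.114) and rho = 0.664 (permutation p = 0.0305, adjusted p = 0.0686), and r = 0.784 without mice 10 and 12 (permutation p = 0.0134). Over all 946 pairs of collagen genes the median r was 0.0989, at 0.137 for the 132 pairs within a class and 0.0985 for the 814 pairs across classes. These pairs share their libraries and are given without a test.

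**Figure D4:**
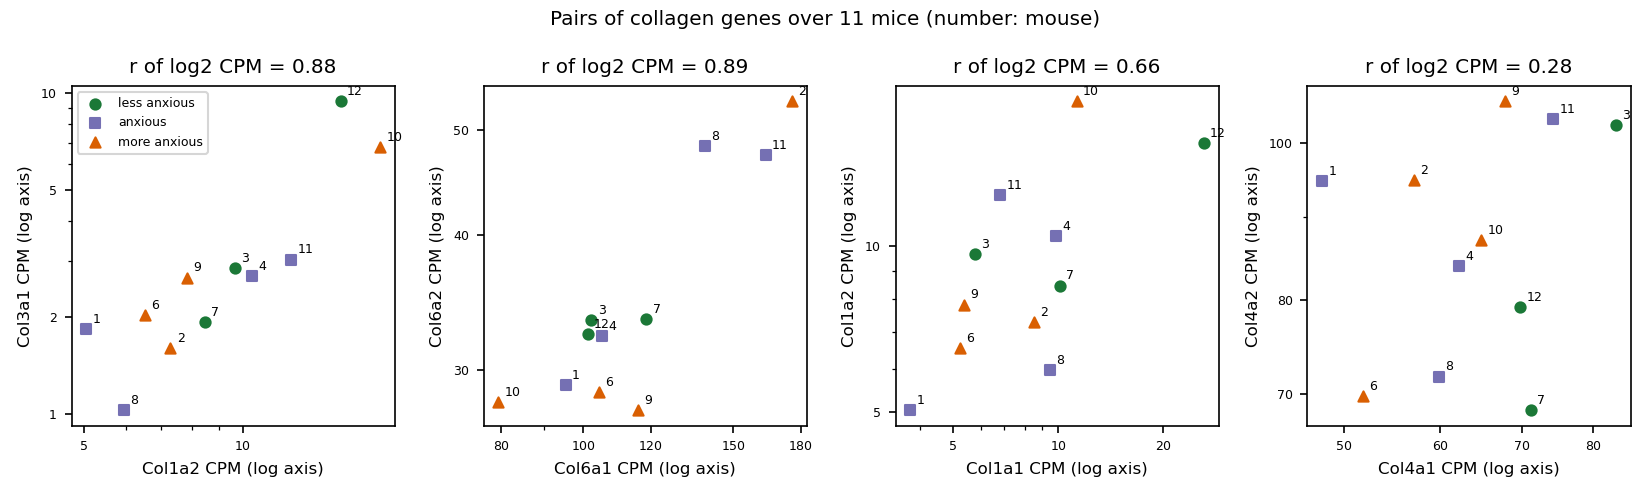
CPM (log axes) of 4 pairs of collagen genes against each other, each point a mouse with its number, coloured by anxiety group. Col1a2 and Col3a1 (r = 0.878) and Col6a1 and Col6a2 (r = 0.888) line up over the 11 mice, while Col4a1 and Col4a2 (r = 0.280) scatter.

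The other 4 pairs set a collagen gene against a marker of a cell type, and none passed the adjusted threshold. Col1a2 had r = 0.056 with Dcn, the fibroblast proteoglycan decorin (permutation p = 0.869, adjusted p = 0.925; rho = 0.30, permutation p = 0.372, adjusted p = 0.558). Dcn was at 46.6, 50.1 and 22.4 CPM in the less anxious mice, 16.7, 62.1, 44.1 and 52.7 CPM in the anxious mice and 133, 13.1, 19.02 and 23.9 CPM in the more anxious mice, highest in mouse 2, which was not high in Col1a2, and without mice 10 and 12 r was 0.464 (permutation p = 0.207). Col1a2 had r = −0.361 with Ttr, the transthyretin of the choroid plexus (permutation p = 0.273, adjusted p = 0.491; rho = −0.364, permutation p = 0.272, adjusted p = 0.490), and r = 0.094 without mice 10 and 12. Ttr reached only 1.02 to 5.58 CPM.

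Col4a1 had r = 0.051 with Pecam1, an adhesion protein of endothelial cells (permutation p = 0.882, adjusted p = 0.925; rho = −0.018, permutation p = 0.967, adjusted p = 0.967), and r = −0.265 without mice 1 and 3. Pecam1 ran from 9.57 to 75.3 CPM, with the highest value in mouse 8, whereas Cldn5, a tight-junction gene of the same cells, ran from 14.7 to 25.8 CPM and was lowest there. Col4a1 had r = 0.031 with Pdgfrb, the growth factor receptor of pericytes (permutation p = 0.925, adjusted p = 0.925; rho = 0.027, permutation p = 0.946, adjusted p = 0.967), and r = 0.292 without mice 1 and 3.

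The ratio of partner chains within a mouse gives a view that does not depend on the scaling between libraries. The ratio of Col4a2 to Col4a1, in CPM per kb, was 1.26, 0.985 and 1.16 in the less anxious mice, 2.02, 1.38, 1.23 and 1.43 in the anxious mice and 1.70, 1.38, 1.61 and 1.38 in the more anxious mice. Every more anxious mouse lay above every less anxious mouse, and the mean over the 11 mice was 1.41 ± 0.283 (SD). The mean log2 ratio was 0.42 higher in the more than in the less anxious mice (exact two-sided permutation test over 35 arrangements, p = 0.0286, the smallest these groups allow, adjusted p = 0.20 over 7 ratios). The ratio tests were not planned. The difference ran from 0.32 to 0.50 as each of the 7 mice was left out, with exact permutation p-values from 0.0667 to 0.133 (adjusted p from 0.35 to 0.70). The smallest p these groups allow is 0.0667 with a less anxious mouse left out and 0.1 with a more anxious mouse left out. Mean levels in the less and more anxious mice were 74.8 and 60.4 CPM for Col4a1 and 83.4 and 89.5 CPM for Col4a2.

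The other 6 ratios overlapped between the less and the more anxious mice. Col1a1 to Col1a2 was 0.868 ± 0.361 (SD, n = 11), and ranged from 0.497 in mouse 11 to 1.54 in mouse 12. Col3a1 to Col1a2 was 0.299 ± 0.114, and Col6a3 to Col6a1 was 0.0159 ± 0.00630. Col6a2 to Col6a1 was the steadiest relative to its mean, at 0.268 ± 0.0293. Col4a5 to Col4a1 (0.0530 ± 0.0104) and Col9a2 to Col9a3 (0.768 ± 0.148) completed the set, and all 6 had an adjusted p of 0.771 in the exact permutation test. The size of a ratio depends on the transcript lengths used, by the same factor in every mouse. With merged exons the mean levels were 1.42 (Col1a1) and 0.784 CPM per kb (Col1a2), so their ratio does not rank these chains. Those of Col6a1 and Col6a2 were 27.0 and 4.30 CPM per kb.

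**Figure D5:**
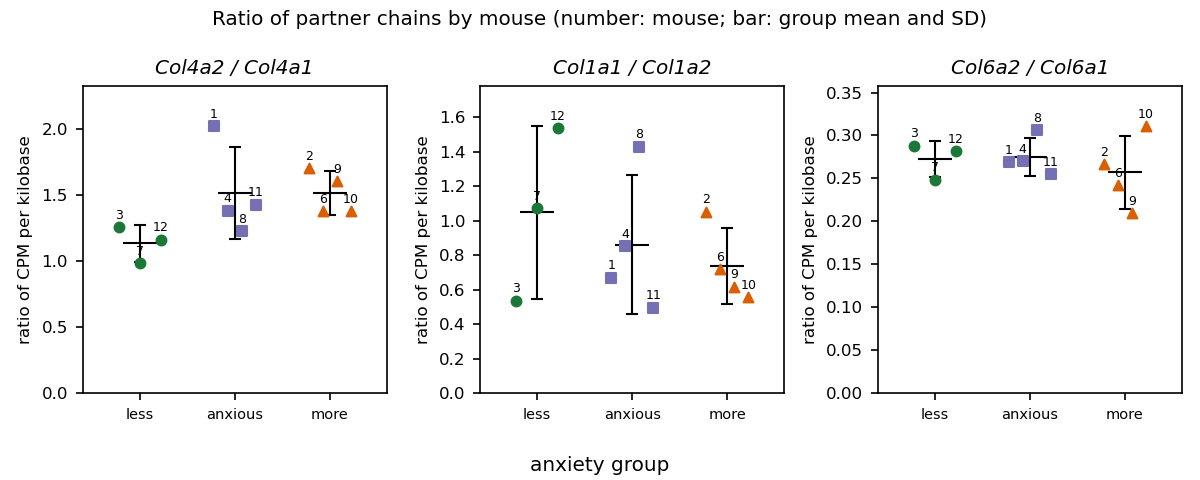
Ratio of CPM per kb between partner collagen chains for 3 pairs, by anxiety group, each point a mouse with its number, with bars for the group mean and SD. The Col4a2 to Col4a1 ratio lies between 0.985 and 1.26 in the less anxious and between 1.38 and 1.70 in the more anxious mice, while Col1a1 to Col1a2 and Col6a2 to Col6a1 overlap between these groups.

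Of 15837 genes with a mean of at least 1 CPM, those whose log2 CPM followed Col1a2 most closely over the 11 mice were Gpr182 (r = 0.954), Slc6a20a (0.951), Slc6a13 (0.936), Aebp1 (0.934) and Aldh1a2 (0.932). Gpr182 encodes a chemokine-scavenging receptor, Slc6a20a and Slc6a13 amino acid transporters, Aebp1 a collagen-binding matrix protein and Aldh1a2 an enzyme of retinoic acid synthesis, and Slc6a13 and Aldh1a2 are also on the fibroblast marker list. Col4a1 was followed most closely by Col8a2 (r = 0.915), Efcab14 (0.884), Pask (0.875), BC005537 (0.871) and Gm36371 (0.860). These values describe 11 libraries that differ in depth, and they were picked as the highest of many.

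Genes that build, cut and bind collagen were taken from lists by function, in 5 groups (4 described here) with 1 test per gene, and none was called across the anxiety groups. At an unadjusted p under 0.05 there were 6 over all 5 groups, including the group not described, and the background is the 6.35% given above. For each group described, the number of genes is given below. Of 19 genes of collagen folding and modification, 2 had such a p, both higher on average in the more than in the less anxious mice: Plod2, a lysyl hydroxylase (0.26 ± 0.18), and P4ha2, a prolyl hydroxylase (0.17 ± 0.16). The next smallest p was that of P3h2, a prolyl 3-hydroxylase (−0.10 ± 0.24). In both Plod2 and P4ha2 the anxious mice had the lowest mean, 4.41 and 11.7 CPM, compared with 5.58 and 14.1 CPM in the less anxious mice. The adjusted p-values of Plod2 and P4ha2 were 0.567 and 0.740 (edgeR, Benjamini-Hochberg).

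Of 14 processing and crosslinking genes, 0 had an unadjusted p under 0.05. The smallest were those of Sparc, a collagen-binding matrix protein (−0.41 ± 0.17), and the procollagen proteases Tll2 (−0.80 ± 0.41) and Tll1 (−0.41 ± 0.23). Among 10 tested degradation genes of 11 listed, 1 had such a p, the metalloproteinase inhibitor Timp3 (−0.37 ± 0.11, adjusted p = 0.632, edgeR, Benjamini-Hochberg). Timp2 (−0.036 ± 0.12) and the gelatinase Mmp2 (−0.094 ± 0.18) differed by less than their SE. Among 10 collagen receptors, 2 had such a p, both lower on average in the more anxious mice: Lair1, an inhibitory receptor of immune cells (−0.53 ± 0.16), and Itgb1, the beta subunit of the collagen integrins (−0.31 ± 0.089). Itga1, an alpha subunit that pairs with it, came next (−0.52 ± 0.21).

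The remaining marker lists describe what else the dissections held. Choroid plexus genes (Ttr, Kl, Folr1, Clic6, Kcnj13, Otx2, Aqp1, Slc4a5, Prlr and Sostdc1) summed to 29.9 to 38.6 CPM in the less anxious, 22.6 to 32.8 CPM in the anxious and 16.4 to 29.95 CPM in the more anxious mice, and 1 of 10, the potassium channel gene Kcnj13, had an unadjusted p under 0.05 (−3.26 ± 0.77). Clic6 (−0.77 ± 0.32) and Kl (−0.33 ± 0.21) came next, and the defining transcription factor Otx2 was at 0 in mouse 8. Pituitary genes (Prl, Gh, Cga, Tshb, Lhb, Fshb, Pitx1 and Pou1f1) summed to 3.32 to 4.04 CPM in the less anxious, 2.27 to 54.2 CPM in the anxious and 1.48 to 2.34 CPM in the more anxious mice. Of these, 5 of 8 had an unadjusted p under 0.05, 2 higher and 3 lower, compared with 6.35% of all genes. Prl (−4.09 ± 1.85), Gh (−3.76 ± 1.71) and Lhb (1.32 ± 1.13) were first, and 5 of the 8 were at 0 in some mouse. Red blood cell genes (Hba-a1, Hba-a2, Hbb-bs, Hbb-bt and Alas2) summed to 70.2 to 97.5 CPM in the less anxious, 60.4 to 118 CPM in the anxious and 54.9 to 107 CPM in the more anxious mice, with 0 of 5 at such a p, and Hbb-bt (−0.17 ± 0.23), Hba-a1 (0.36 ± 0.41) and Alas2 (−0.49 ± 0.37) first. Of the 10 amygdala neuron genes (Slc17a7, Slc17a6, Gad1, Gad2, Prkcd, Crh, Sst, Rspo2, Cyp26b1 and Dkk3), 0 had such a p, with Slc17a7 (0.44 ± 0.17), Sst (0.42 ± 0.23) and Prkcd (−0.21 ± 0.31) first. The part of any of these in the collagen levels was not tested.

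The behavior measures come from the mice and not from their RNA, so they give a comparison that does not use the anxiety groups. Each of 7 measures was fitted as a number, in units of its SD over mice, with edgeR over all genes. Of 308 tests of a collagen gene against a measure, 0 passed after Benjamini-Hochberg adjustment over all genes, where the smallest adjusted p was 0.341, for Col7a1 and the 3-min social ratio. An unadjusted p under 0.05 was seen in 34 tests and 23 genes. The measures are related to each other and were taken from the same mice, so these counts are not independent. Collagen genes outside the values by mouse above are named here for their p, after their values were seen.

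In the elevated plus maze, open arm time had 2 collagen genes with an unadjusted p under 0.05 (4.55%, against 5.84% of all genes) and total entries 8 (18.2%, against 6.97%). For open arm time the genes were Col16a1 and Col4a2, both higher in mice that spent less time there. Col16a1, a FACIT collagen, had 46.9, 40.1, 42.3 and 50.9 CPM in mice 2, 10, 9 and 1, which spent 2.33% to 6.73% of the time in the open arms, and 22.7 to 41.6 CPM in the 7 other mice, which spent 14.7% to 29.2%. These ranges overlapped only through mouse 3, and the slope was −0.30 per SD of the measure, adjusted p = 0.374 (edgeR, Benjamini-Hochberg). For Col4a2 it was −0.13 per SD of the measure, adjusted p = 0.818.

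With more total entries, Col23a1, Col16a1, Col20a1 and Col5a2 were lower and Col26a1, Col3a1, Col4a6 and Col1a1 higher. Col23a1, a transmembrane collagen, had 79.8 CPM in mouse 2, which made 6 entries, against 30.5 to 52.3 CPM in the other mice, which made 15 to 42. Its slope was −0.30 per SD of the measure, adjusted p = 0.576 by edgeR with Benjamini-Hochberg adjustment. Without mouse 2 there were 7 collagen genes at an unadjusted p under 0.05 for this measure. Of these 8 genes Col3a1 had the steepest slope, 0.58 per SD of the measure, adjusted p = 0.622, and the mouse with most entries, mouse 12 with 42, also had the highest Col3a1 and Col1a1.

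In the light/dark box, time in the light had 6 collagen genes at an unadjusted p under 0.05 (13.6%, against 3.55% of all genes) and distance in the light 6 (13.6%, against 5.80%). Col23a1, Col25a1, Col5a1 and Col6a4 were in both lists. Col25a1 was higher in mice with more of their distance in the light, 0.15 per SD of the measure, adjusted p = 0.800, and Col23a1 lower, −0.31 per SD of the measure, adjusted p = 0.688 (edgeR, Benjamini-Hochberg). Mouse 2, with 16.6% of its distance in the light, the least of the 11, had the highest Col23a1 and nearly the lowest Col25a1 (86.6 CPM). Col5a1 was lower and Col6a4 higher with both measures, while Col13a1 and Col19a1 were lower with time in the light, and with distance in the light Col10a1 was higher and Col6a1 lower.

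In the social interaction test, a mouse can stay beside a caged stranger, and the labels give a box to zone ratio over the first 3, 5 and 10 min, whose exact definition is not given in the sources used here. At 3 min, in 10 mice since mouse 4 has no value, 7 collagen genes had an unadjusted p under 0.05 (15.9%, against 7.65% of all 26651 genes tested there), at 5 min 2 (4.55%, against 6.56%) and at 10 min 3 (6.82%, against 8.05%). At 3 min Col7a1 (0.46 per SD of the measure, adjusted p = 0.341, edgeR, Benjamini-Hochberg), Col4a2, Col12a1, Col11a2, Col5a3 and Col9a2 were higher with a higher ratio and Col18a1 was lower. Col12a1, a FACIT collagen, appeared at all 3 times, with slopes of 0.22, 0.20 and 0.22 per SD, and Col10a1 at 5 and 10 min, joined at 10 min by Col4a1. With PC1 as a covariate the 3-min count was 4.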

How the data were processed

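Amygdala mRNA of 12 female mice was sequenced with single-end reads of 75 bp in 1 run. Per the study's methods, the authors aligned reads to mm10 with STAR for quality checks and estimated transcript abundance with Salmon, summed to genes with tximport. The authors deposited estimated counts (expected counts) as whole numbers, without normalization. All values in the table were whole (0 exceptions). Libraries came from a stranded kit. Tool versions, the annotation release and whether the counting used the strand are not given in the sources used here. Salmon divides reads between similar or overlapping transcripts. Exons of 13 collagen genes overlap those of another gene, by at most 563 bases, and such counts are less certain.

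Names, coordinates and lengths came from GENCODE M21 (GRCm38), matched to 47310 of 47729 genes, and promoters from RefSeq (GRCm38.p6). Groups and behavior came from the sample labels, and mouse 5 has no group. Genes with at least 10 counts in total over 11 mice were tested with edgeR 4.0.16 in R 4.3.3 (quasi-likelihood F-test, robust, TMM, PC1 covariate, both group coefficients together), with Benjamini-Hochberg adjusted p-values under 0.05 called. Behavior fits had no covariate. DESeq2 1.42.0 was an alternative, as were other size factors, filters, spread estimates and covariates, a GC offset, merged exon lengths and each mouse left out. The GC offset, merged lengths, the tests of partner chain ratios and the left-out ratios were added after seeing the data. Log2 CPM used a prior count of 2. Correlations used 100000 permutations (numpy 2.4.6 in Python 3.11.15, with statsmodels 0.14.6, scipy 1.17.1, matplotlib 3.10.9 and pandas 2.3.3). An SE is the absolute log2 difference divided by the square root of its F value. The fits were tested on simulated data. A count of 0 allows up to 3 reads, and such limits cover counting error only.

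The collagen genes and all lists were chosen with earlier results of these data known. Values per mouse are given for 12 preset genes, the 8 with the smallest p, the 5 highest per length and the 5 most variable, 21 in all. From each other list the called genes and the 3 with the smallest p are named, and for Col1a2 and Col4a1 the 5 most similar genes. Genes named outside this rule are marked. The list of other basement membrane genes is not reported here, though its genes count among the other matrix genes. No comparison columns of the authors were in the file, and 0 columns were left unused.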

Additional observations from a re-analysis of the deposited data

Results flagged for a closer look

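Among sets of 4 mice, a value is given here where its gap to the nearest mouse exceeded Dixon's 95% critical share of the group's range. This was so in 2 of 88 sets (2.27%), where chance alone gives about 5%. Col6a2 in the more anxious group was at 53.1 CPM in mouse 2, against 27.6 to 28.6 CPM in mice 6, 9 and 10. Col1a2 in the more anxious group was at 18.2 CPM in mouse 10, against 6.53 to 7.83 CPM in mice 2, 6 and 9.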

How the results depend on the processing

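No alternative called a collagen gene across the groups or between a pair of groups. The smallest adjusted p over the collagen genes ran from 0.168 to 0.999 over the 18 alternatives. Over all genes edgeR called 2 and DESeq2 209, and 9 were called with all genes of at least 1 count. The count of collagen genes at an unadjusted p under 0.05 across the groups was 3 in the main fit. It was 6 with DESeq2 (13.6%, against 6.36% of all genes) and 5 without robust spread estimates. As each mouse was left out it was 1 to 8. The count of the other matrix genes (6) was 3 to 8 as mice were left out, with 3 without mouse 7. The behavior counts with a mouse left out were 1 to 5 for open arm time (2 with all mice; 5 without mouse 1, 4 without mouse 10 and 1 without mouse 7), 3 to 7 for time in the light (6; 3 without mouse 1 or 2), 3 to 8 for the 3-min ratio (7; 3 without mouse 7), 1 to 3 for the 5-min ratio (2; 1 without mouse 3, 4 or 10) and 1 to 4 for the 10-min ratio (3; 1 without mouse 3). With PC1 as a covariate the 3-min count was 4. The r of Col1a1 and Col1a2 ran from 0.555 to 0.744 (past the adjusted threshold without mouse 8), and signs turned for Col1a2 and Dcn (−0.142 to 0.226), Col4a1 and Pecam1 (−0.0883 to 0.190) and Col4a1 and Pdgfrb (−0.112 to 0.213). The cause of these changes was not tested. Apart from DESeq2, shares over all genes are not given for counts at an unadjusted p under 0.05 in the alternatives. Those counts have no background beside them. A GC offset turned the sign of 3 log2 differences (Col5a3, Col26a1 and Col6a2), all of at most 0.12 without it, and left 2 collagen genes at an unadjusted p under 0.05, Col4a1 and Col17a1, in place of Col11a2, Col9a2 and Col17a1. It moved the differences of Col16a1 from 0.34 to 0.14 and of Col7a1 from 0.48 to 0.24, beside those of Col11a2, Col9a2 and Col4a2. No adjusted p of a gene given by mouse changed its side of the threshold in any alternative that gave a value, and DESeq2 gave none for Col8a1, Col8a2, Col4a6 and Col17a1. No paired analysis was possible because the labels number the mice and give the groups no shared replicate numbers. Depth limits the rarest genes, such as Col8a2 and Col17a1 with under 10 counts in mouse 1.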

Other observations

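Mouse 5, which the labels put in no group, had counts in fewer genes than the other mice (23768 genes with a read). Of the 44 collagen genes, 30 lay within the range of the other 11 mice there, 12 below and 2 above. The genes above were Col1a2, at 18.7 CPM compared with at most 18.2 CPM in the others, and Col4a4, at 0.883 CPM compared with at most 0.872 CPM. Col4a3 had 0 counts in mouse 5, which allows up to 3, compared with 0.251 to 1.01 CPM in the others. These levels use TMM factors of all 12 mice.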
